A study of Mus musculus with 49 samples.

Results

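Nuclei of mouse embryonic stem (ES) cells sorted through a mid-S gate were compared with nuclei sorted through an early-S gate, to see which features of chromosome folding differed between these stages of DNA replication. The measurement was single-cell Hi-C, in which DNA ends that lie close together in a fixed nucleus are joined and sequenced, so that each joined pair records 1 contact. Every cell that passed the authors' quality control and carried the authors' condition 1CD_mS or 1CD_eS was taken, whatever contact-based group the authors had placed it in. This gave 262 mid-S and 303 early-S cells, or 565 of the 1992 passing cells of diploid ES cells grown in 2i and of the 4098 passing cells of the series. Both gates hold the same F1 hybrid line, from a cross of 129/SV-Jae with castaneus mice. The cells were grown in 2i, a medium with inhibitors of differentiation, without feeder cells. Nuclei were fixed with formaldehyde, permeabilised, and stained with Hoechst and an antibody against Geminin before sorting. The limits of the gates and the number of cultures are not given in the sources used here, and all cells come from 1 line, so each p-value speaks of differences between libraries, which may be technical.

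Hoechst fluorescence follows DNA content, and Geminin is a replication inhibitor that is absent in G1, accumulates as S phase proceeds and is degraded at the end of mitosis. The gate therefore places a nucleus in the cycle without use of its contacts. Chromosomes fold at several scales. Active and inactive chromatin separate into the A and B compartments, domains of preferential contact are divided by insulating borders, and cohesin and CTCF hold loops between distant sites. The A compartment is copied early in S phase and the B compartment late.

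Each gate was represented by 3 libraries. The mid-S gate had libraries 23 (158 passing cells), 24 (99) and 17 (5), and the early-S gate had libraries 21 (154), 22 (143) and 16 (6). Libraries 23, 24, 21 and 22 each filled a lane of their own, so lane and gate cannot be told apart among them. Libraries 17 and 16 were sequenced in the same lane, beside small libraries of the G1 and late-S/G2 gates, and give the only comparison of the gates within a lane. Library 24 stood apart in quality, with 51.6% of its 192 cells passing (exact 95% interval 44.3 to 58.8), against 82.3% in library 23, 80.2% in library 21 and 74.5% in library 22. Summed over passing cells, a library held 1188441 to 44671718 contacts in the mid-S gate and 1287104 to 39138356 in the early-S gate. Binomial intervals here and below cover counting error only.

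Of 11 folding and 4 quality features given per cell, 6 differed between the gates at an adjusted p of 0.05 by limma, which is 40% of the 15 tested, and all 6 were among the 11 folding features (54.5% of them). The libraries with at least 10 cells did not overlap between the gates for 12 features, or 80%. The replication score and the share of short-range contacts were higher in mid-S nuclei. Mean insulation, the share of contacts between chromosomes, the share in the mitotic band and the enrichment of LL loops were lower. The score for compartment contrast within chromosomes was nearly level over the large libraries. The test used the means of the 8 libraries with at least 10 cells from all 4 sort gates (G1, early-S, mid-S and late-S/G2), so that the gates shared 1 estimate of the spread, with each feature in units of its SD over cells. An exact permutation of 2 against 2 libraries cannot give a two-sided p below 0.333, and with the small libraries added, 3 against 3, not below 0.1. For all 6 features the 3 mid-S libraries did not overlap the 3 early-S libraries (9 of the 15 features, or 60%, were separated in this way), and the difference within the shared lane had the same direction. Of the 9 features that did not pass, 7 also kept their direction in the shared lane.

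**Figure D1:**
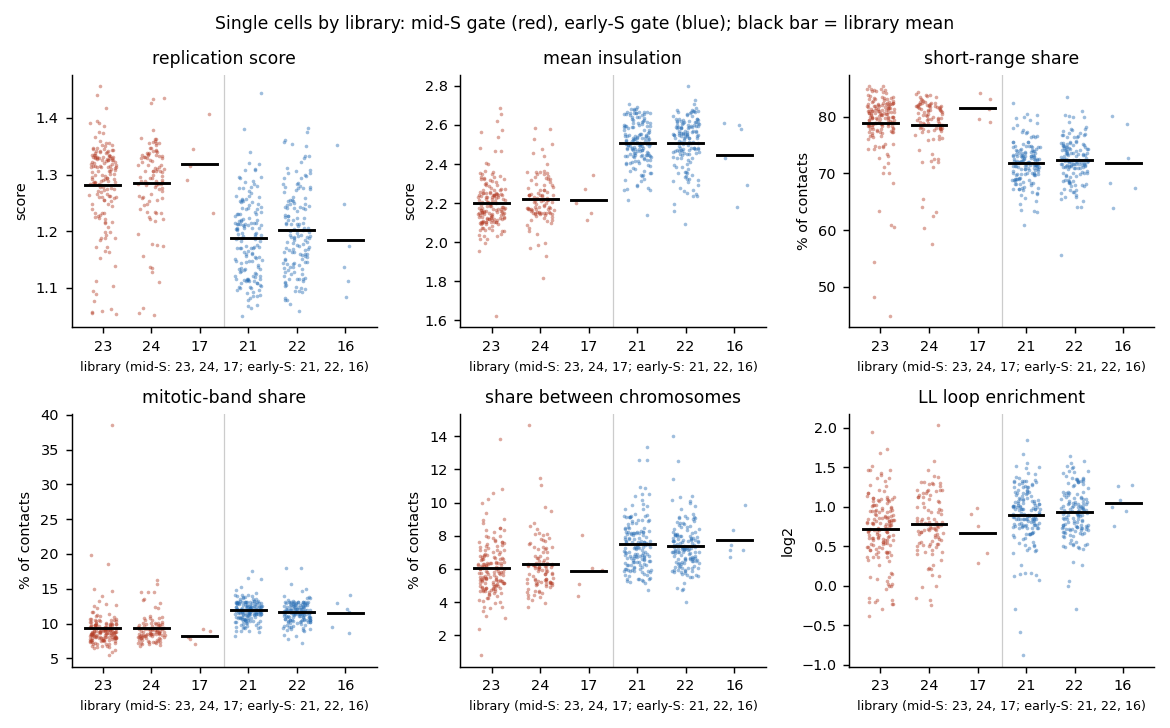
Values of single cells (points) in the 6 libraries for the 6 features that differed, with the mid-S libraries 23, 24 and 17 in red on the left and the early-S libraries 21, 22 and 16 in blue on the right; the black bar is the library mean, and the units stand on each vertical axis. The means of the 3 mid-S libraries lie above all early-S means for the replication score and the short-range share, and below them for the other 4 features, while single cells of the gates overlap.

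The replication score is a per-cell value of the authors whose formula is not given in the files. Its lowest cell in the table is set to 1. It averaged 1.28, 1.29 and 1.32 in the mid-S libraries 23, 24 and 17, against 1.19, 1.20 and 1.18 in the early-S libraries 21, 22 and 16. The gates did not overlap at the level of libraries. The difference of the large libraries was 0.0886 ± 0.00752 (SE, adjusted p = 0.000147 by limma), and within the shared lane it was 0.133. Cells overlapped more than libraries did: 87.3% of the cells in library 23 and 88.9% in library 24 lay above the median early-S cell, at 1.191. The lowest mid-S cells, at 1.05, lay as low as the lowest early-S cells.

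Mean insulation, a score of the authors that the files do not define, had the largest difference in units of cell SD among the 15 features over the large libraries. In the shared lane the coverage deviation (1.55 SD) and the replication score (1.34 SD) differed by more than insulation (-1.11 SD). It was 2.20, 2.22 and 2.22 in the mid-S libraries 23, 24 and 17, against 2.51, 2.51 and 2.45 in the early-S libraries 21, 22 and 16. The spread between libraries of a gate was small beside the difference, with an SD of 0.0129 over the large mid-S libraries and 0.00127 over the large early-S libraries (n = 2 each). Insulation fell by 0.297 ± 0.0108 (SE), with a 95% interval from -0.323 to -0.270 and an adjusted p of 1.95e-06 by limma, or by 1.42 SD of cells. Within the shared lane it was 0.233 lower in mid-S than in early-S nuclei. Of the cells in libraries 23 and 24, 96.2% and 97.0% lay below the median early-S cell, a clearer separation of single cells than the replication score gave. The middle 50% of cells ran from 2.12 to 2.25 in library 23 and from 2.15 to 2.29 in library 24, below the range from 2.44 to 2.59 in library 21 and from 2.45 to 2.60 in library 22.

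**Figure D2:**
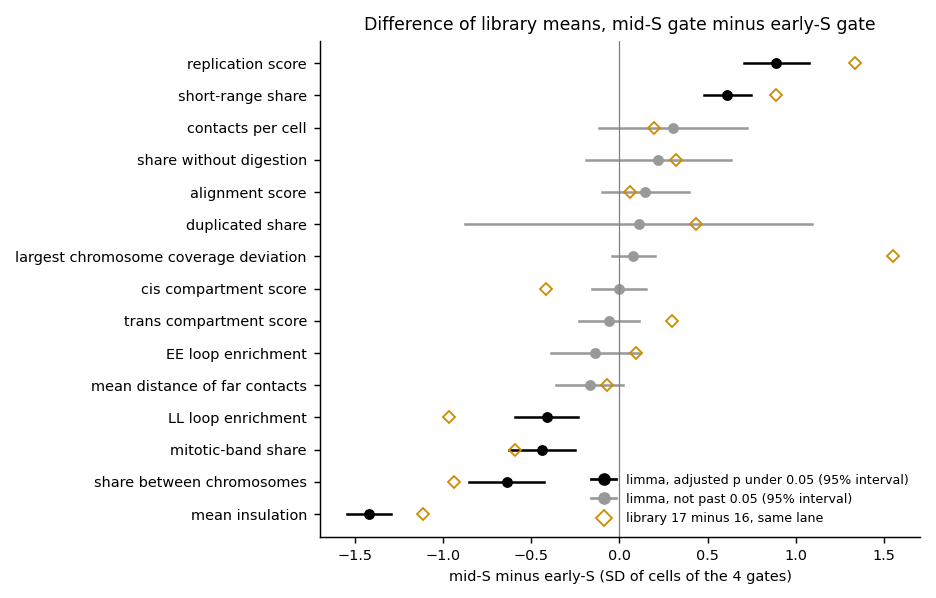
Difference of mid-S minus early-S library means for each of the 15 features, in SD of cells over the 4 gates, as the limma estimate with its 95% interval (black where the adjusted p was under 0.05, grey otherwise), with the difference of library 17 minus library 16 in the shared lane as an open diamond. Insulation lies farthest below 0 (-1.42) and the replication score farthest above (0.89), and the diamonds of the 6 black features lie on the same side of 0 as their estimates, as do 7 of the 9 grey ones.

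Contacts moved toward short distances. The short-range share, the fraction of a cell's contacts in a near band of distances whose limits are not stated, was 78.9%, 78.6% and 81.5% in the mid-S libraries 23, 24 and 17, against 71.9%, 72.4% and 71.9% in the early-S libraries 21, 22 and 16. It was 6.61 ± 0.597 percentage points higher in the large mid-S libraries (SE, adjusted p = 0.000147 by limma) and 9.61 points higher within the shared lane. The share in the band that the authors call mitotic, also without stated limits, was 9.31%, 9.30% and 8.22% in the same mid-S libraries, against 11.9%, 11.6% and 11.5% in the early-S libraries. It fell by 2.45 ± 0.429 points (SE, adjusted p = 0.00302 by limma), and by 3.29 points in the shared lane. These shares are parts of 1 total, so they are not independent of each other. Across the cells of a library they ran against each other, with Spearman's rho of -0.844 and -0.895 in libraries 23 and 24 and -0.747 and -0.775 in libraries 21 and 22, as a description.

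The share of contacts between chromosomes was lower in mid-S nuclei. It was 6.06%, 6.30% and 5.90% in the mid-S libraries 23, 24 and 17, against 7.50%, 7.41% and 7.77% in the early-S libraries 21, 22 and 16. The fall was 1.28 ± 0.174 percentage points (SE, adjusted p = 0.00116 by limma), and in the shared lane the share fell by 1.87 points. Single cells overlapped, with 81.6% of library 23 and 78.8% of library 24 below the median early-S cell. The alignment score between chromosomes, a measure by the authors with no definition in the files, was 0.306 and 0.307 in libraries 23 and 24, against 0.290 and 0.292 in libraries 21 and 22. Its difference of 0.0155 (95% interval -0.0102 to 0.0411) did not pass (adjusted p = 0.288 by limma). The mean distance of far contacts was 26.3 and 26.6 Mb in the same mid-S libraries, against 27.4 and 27.2 Mb in the early-S libraries, a difference of -0.794 Mb (-1.69 to 0.105) that did not pass either (adjusted p = 0.159 by limma).

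Neither compartment score differed past the threshold. The cis compartment score was 0.436, 0.435 and 0.363 in the mid-S libraries 23, 24 and 17, against 0.432, 0.439 and 0.408 in the early-S libraries 21, 22 and 16. The large libraries of the gates overlapped, and their difference was -0.000430 with a 95% interval from -0.0169 to 0.0160 (adjusted p = 0.951 by limma). In the shared lane the score differed by -0.0450, over 5 mid-S and 6 early-S cells. The trans compartment score, for contrast in contacts between chromosomes, was 0.314, 0.325 and 0.322 in the mid-S libraries, against 0.318, 0.334 and 0.288 in the early-S libraries. Its difference was -0.00687 (-0.0263 to 0.0125, adjusted p = 0.485 by limma), and the sign turned to 0.0343 in the shared lane.

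The tables list loops in classes named EE and LL, without definition, as enrichments that are read here as log2 values from their range. LL loop enrichment was 0.72, 0.79 and 0.67 in the mid-S libraries 23, 24 and 17, against 0.90, 0.93 and 1.05 in the early-S libraries 21, 22 and 16. It fell by 0.16 ± 0.03 on the log2 scale (SE, adjusted p = 0.00302 by limma), and by 0.38 in the shared lane. Single cells of the gates overlapped, with 69.6% of library 23 and 63.6% of library 24 below the median early-S cell. Cells ranged from -0.38 to 1.95 in library 23 and from -0.87 to 1.85 in library 21. EE loop enrichment was 0.60, 0.58 and 0.60 in the mid-S libraries, against 0.62, 0.63 and 0.58 in the early-S libraries. The libraries with at least 5 cells overlapped, and the difference of the large libraries, -0.0399 (95% interval -0.11 to 0.03), did not pass (adjusted p = 0.296 by limma). Whether LL and EE loops differed in their change was not tested.

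Of the 4 quality measures, 0 passed by limma, with or without adjustment. Contacts per cell averaged 282732 and 293286 in the mid-S libraries 23 and 24, against 254145 and 249596 in the early-S libraries 21 and 22, a difference of 36138 (95% interval -14250 to 86526, adjusted p = 0.244 by limma). With a fit of the libraries of both gates alone, which estimates the spread from 4 libraries, 11 features passed, contacts per cell among them (adjusted p = 0.000898). To compare the gates at like depth, only cells with 209494 to 336692 contacts were kept. There contacts differed by 3620, and insulation (-0.296, adjusted p = 2.24e-05), the replication score (0.100, 0.000297), the short-range share (6.12 points, 0.0297) and the share between chromosomes (-1.60 points, 0.00322) still passed by limma. The mitotic-band share (-2.34 points, adjusted p = 0.188) and LL loops (-0.15, adjusted p = 0.134) kept their direction there without passing. The largest chromosome coverage deviation was 0.384 and 0.378 in libraries 23 and 24, against 0.369 and 0.358 in libraries 21 and 22 (adjusted p = 0.283 by limma). In the shared lane it was 0.602 in library 17, against 0.249 in library 16.

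The gates were set beside the groups that the authors had made from contacts. The early-S gate was nearly pure by this measure, and the mid-S gate was a mixture. In the mid-S libraries 23 and 24, 65.8% (exact 95% interval 57.9 to 73.2) and 61.6% (51.3 to 71.2) of the cells belonged to the late-S/G2 group, and 29.7% and 36.4% to the early-S group. In the early-S libraries 21 and 22, 94.8% and 94.4% of the cells belonged to the early-S group (exact 95% interval 90.8 to 96.4 over all cells of the gate), and 3.25% and 4.90% to the late-S/G2 group. The gates did not overlap in either share, and the exact permutation p of 0.333 is the smallest that 2 against 2 libraries allow. In the shared lane all 5 cells of library 17 were in the late-S/G2 group, against 2 of 6 cells of library 16. The authors' order placed the large mid-S libraries at a mean of 1365 among 1992 cells, and the large early-S libraries at 904. The name of the early-S gate thus matched the authors' group, whereas most mid-S cells lay in the group named late-S/G2, which has no mid-S class beside it.

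**Figure D3:**
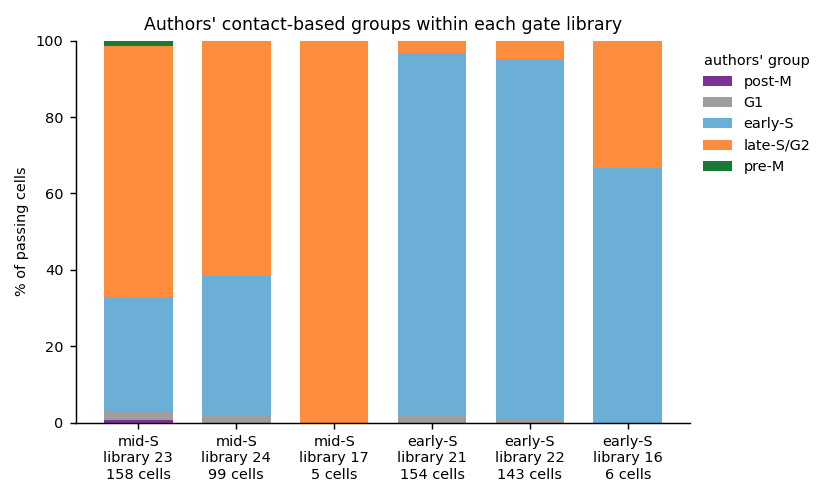
Share of passing cells (percent) in each of the authors' 5 contact-based groups, 1 stacked bar per library, with the mid-S libraries 23, 24 and 17 left of the early-S libraries 21, 22 and 16. Late-S/G2 cells (orange) make up 65.8% and 61.6% of the large mid-S libraries, and early-S cells (light blue) 94.8% and 94.4% of the large early-S libraries.

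Insulation and the replication score differed between the gates also among cells that the authors had put in 1 group. In early-S-group cells alone, insulation was 2.22 and 2.23 in the mid-S libraries 23 (47 cells) and 24 (36 cells), against 2.51 and 2.52 in the early-S libraries 21 (146 cells) and 22 (135 cells). The difference of -0.288 ± 0.0187 (SE, adjusted p = 8.24e-05 by limma) was close to that over all cells. The replication score of these cells was 1.30 and 1.28 in the mid-S libraries, against 1.19 and 1.20 in the early-S libraries (difference 0.0957, adjusted p = 0.00053 by limma). The other 4 features no longer passed within the group. The short-range share was 3.54 points higher (adjusted p = 0.165), the mitotic-band share 1.35 points lower (0.172), the share between chromosomes 0.444 points lower (0.682) and LL enrichment 0.14 lower (0.261, all by limma). The groups were made from the contacts of these cells, so that limiting the cells to 1 group also limits their contact features. The coverage deviation, which did not pass over all cells, was 0.100 higher in mid-S than in early-S nuclei of the early-S group (adjusted p = 0.0102 by limma).

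Within the mid-S gate, the late-S/G2 and early-S groups lay close together in insulation and in replication score. Late-S/G2 cells averaged 2.19 in library 23 and 2.22 in library 24, against 2.22 and 2.23 in early-S-group cells of the same libraries. Their replication score was 1.29 in both libraries, against 1.30 and 1.28. The share between chromosomes was 5.78% and 5.81% in late-S/G2 cells, against 7.09% and 6.96% in early-S-group cells. The cis compartment score was 0.457 and 0.452, against 0.410 and 0.409. Values within a gate rest on groups made from these cells and were not tested. In the early-S gate the few late-S/G2 cells, 5 in library 21 and 7 in library 22, had an insulation of 2.33 in both libraries, against 2.51 and 2.52 in early-S-group cells.

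The gates were also compared over cells of like replication score. Over the large libraries the score was highest in the mid-S gate (1.28, against 1.19 in early-S and 1.13 in late-S/G2). Cells of like score need not therefore be at a like stage of replication. Among cells with a score from 1.2 to below 1.3, insulation was 2.19 in 57 cells of library 23 and 2.18 in 39 cells of library 24, against 2.44 in 61 cells of library 21 and 2.47 in 53 cells of library 22. Their mean scores were close but not equal, at 1.264 and 1.266 in the mid-S libraries, against 1.239 and 1.245 in the early-S libraries. From 1.3 to below 1.4 the gates lay closer, with an insulation of 2.20 (75 cells) and 2.23 (45) in libraries 23 and 24, against 2.38 (7) and 2.29 (15) in libraries 21 and 22. From 1.1 to below 1.2 it was 2.24 (15 cells) and 2.28 (9) in the mid-S libraries, against 2.56 (70) and 2.58 (66) in the early-S libraries. Below 1.1 the mid-S libraries had only 8 and 3 cells, at 2.28 and 2.48, against 15 and 9 early-S cells at 2.61 and 2.62. The 8 cells of library 23 took in its 1 post-M cell, at 1.62, and its 2 pre-M cells, at a mean of 2.03. Mean insulation was thus the lower in mid-S libraries in each of these bins. The lowest bin held few mid-S cells, with these post-M and pre-M cells among them.

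The short-range share did not differ in this way in every bin. It was 80.9% and 79.9% in libraries 23 and 24 at a score of 1.2 to below 1.3, against 73.4% and 73.6% in libraries 21 and 22. At 1.3 to below 1.4 it was 79.0% and 79.2%, against 75.7% and 76.5%. At 1.1 to below 1.2 it was 78.7% and 72.1%, against 71.1% in both early-S libraries. Below 1.1 the gates overlapped, with 64.1% and 70.2% in the mid-S libraries, against 67.4% and 67.9% in the early-S libraries. Between the 25th and 75th percentile of the score (1.169 to 1.306), a range chosen after the data had been seen, insulation differed by -0.283 ± 0.0107 (SE, adjusted p = 0.00177 by limma's linear model without moderation, with 3 residual df over 6 libraries, none of the G1 gate), while the score itself still differed by 0.0324. The moderated fit is not used for this range, since it there set 1 spread for all features. With the cells limited in the same way by short-range share (71.5% to 79.9%), insulation differed by -0.277 (adjusted p = 0.00014) and the replication score by 0.0941 (adjusted p = 0.00271, both by limma), whereas the mitotic-band share (-1.42 points), the share between chromosomes (-0.570 points) and LL loops (-0.18) no longer passed. The short-range share itself still passed by limma in this range, so the gates were not matched on it.

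The relation of insulation to replication was then described inside each gate. Across cells of the early-S gate, insulation was lower where the replication score was higher, with Spearman's rho of -0.709 in library 21 (154 cells) and -0.705 in library 22 (143 cells).  In the mid-S gate rho was -0.03 in library 23 (158 cells) and 0.08 in library 24 (99 cells). The short-range share likewise ran with the replication score in libraries 21 and 22 (rho 0.60 and 0.57) and weakly against it in libraries 23 and 24 (-0.18 and -0.09). The duplicated share of fragment ends ran weakly against the score in the mid-S libraries and with it in the early-S libraries, with rho of -0.20 and -0.12 in libraries 23 and 24, against 0.39 and 0.35 in libraries 21 and 22. Cells of a library share its sort and lane, and the part of the duplicated share in the other relations was not tested. The replication score was lower in the late-S/G2 gate than in mid-S, so its rank among mid-S cells need not follow the stage of replication. For the cis score rho was -0.011 and -0.098 in libraries 23 and 24, against 0.031 and 0.054 in libraries 21 and 22, and for the trans score it was -0.026 and 0.033, against 0.235 and 0.071.

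**Figure D4:**
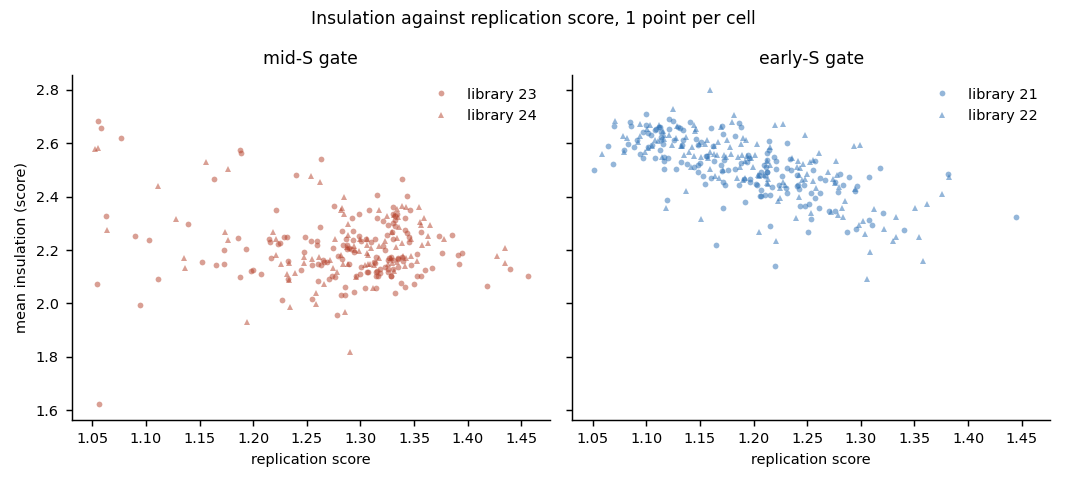
Mean insulation (score, vertical) against the replication score (horizontal), 1 point per cell, with the mid-S libraries 23 and 24 on the left and the early-S libraries 21 and 22 on the right. Early-S cells slope downward (rho -0.709 and -0.705), whereas mid-S cells form a level cloud (rho -0.03 and 0.08).

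Most single cells spanned a like width of short-range share in both gates, but at higher values in the mid-S gate. The middle 50% of cells ran from 77.9% to 81.9% in library 23 and from 77.8% to 81.9% in library 24, against 69.9% to 73.8% in library 21 and 70.2% to 74.7% in library 22. The SD over cells was 5.79 and 5.14 points in the mid-S libraries, against 3.59 and 3.86 points in the early-S libraries, and takes in a few low mid-S cells, down to 44.9%. The SD of insulation over cells was close in both gates, 0.133 and 0.127 against 0.111 and 0.127, as was that of the replication score, 0.0771 and 0.0742 against 0.0702 and 0.0732.

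The step into mid-S was set beside the steps before and after it. The late-S/G2 gate held 17 post-M and 23 pre-M cells among its 326, so that medians over cells are given where they differ from means. Insulation rose by 0.0498 ± 0.0108 (SE) in the early-S gate relative to the G1 gate (adjusted p = 0.0076), fell by 0.297 in mid-S relative to early-S, and fell by 0.0595 ± 0.0108 in the late-S/G2 gate relative to mid-S (adjusted p = 0.00542). The change into mid-S differed from the one before by -0.346 (adjusted p = 2.1e-05), and the change after mid-S differed from it by 0.237 (adjusted p = 9.99e-05, all by limma). The fall after mid-S rested on means. Median insulation was 2.17 and 2.20 in the late-S/G2 libraries 25 and 26, against 2.18 and 2.21 in the mid-S libraries 23 and 24, a difference of -0.00759 that did not pass (adjusted p = 0.769 by limma), while the median changes on either side of mid-S still differed from the one into it. Over both gate libraries of each stage, insulation was 2.46 in G1, 2.51 in early-S, 2.21 in mid-S and 2.15 in late-S/G2. In the shared lane, with 5 or 6 cells a library, it was 2.52, 2.45, 2.22 and 2.22 in the same order, so that the small steps on either side had the opposite sign there, while the step into mid-S was again the largest. With these libraries in the fit, neither small step passed. The replication score was 1.08, 1.19, 1.28 and 1.13 over the large libraries and 1.09, 1.18, 1.32 and 1.15 in the shared lane, so that mid-S was the highest gate in both, with a difference of -0.157 ± 0.00752 from mid-S to the late-S/G2 gate (adjusted p = 1.02e-05 by limma). The rise of this score into mid-S did not differ past the threshold from its rise into early-S (-0.0248, adjusted p = 0.157 by limma).

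Over the large libraries the compartment scores changed at the step into early-S, and the share of contacts between chromosomes rose at that step and fell at the later ones. The cis score averaged 0.340 in G1, 0.436 in early-S, 0.435 in mid-S and 0.443 in late-S/G2. The shared lane gave 0.365, 0.408, 0.363 and 0.493, with the mid-S library as low as the G1 library. Its difference into early-S, 0.0954 ± 0.00675 (SE, adjusted p = 2.6e-05), was larger than the one into mid-S, with a difference between the steps of -0.0958 (step into mid-S minus step into early-S, adjusted p = 0.000617 by limma). With the small libraries in the fit this difference no longer passed (-0.0932, adjusted p = 0.0825 by limma). The trans score was 0.213, 0.326, 0.319 and 0.302 in the same order (adjusted p = 0.000575 for the difference between the steps into early-S and mid-S, by limma). It was higher at each step of the shared lane, at 0.210, 0.288, 0.322 and 0.346. The share between chromosomes was 5.64%, 7.46%, 6.18% and 4.69%, higher by 1.82 points in early-S than in G1 and lower in late-S/G2 than in mid-S (difference -1.49 points, adjusted p = 0.000772 by limma). Its change into mid-S differed from that into early-S by -3.09 points (adjusted p = 0.000345), and the change after mid-S differed from it by -0.216 points, which did not pass (adjusted p = 0.616, both by limma).

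The mean short-range share was 58.9% in G1, 72.1% in early-S, 78.7% in mid-S and 79.1% in late-S/G2, and the last step, 0.382 points, did not pass (adjusted p = 0.63 by limma). Its median was 82.4% and 82.1% in the late-S/G2 libraries 25 and 26, against 80.0% and 79.8% in the mid-S libraries 23 and 24, a difference of 2.37 points that did not pass either (adjusted p = 0.0963 by limma). It was 82.9% in the late-S/G2 library of the shared lane, against 81.5% in its mid-S library. Its change into mid-S differed from the one before by -6.64 points (adjusted p = 0.00191), and the change after mid-S differed from it by -6.23 points (adjusted p = 0.00373, both by limma). With the small libraries in the fit the difference from the step before did not pass (-5.53 points, adjusted p = 0.0825). The mean mitotic-band share was 15.9%, 11.8%, 9.30% and 11.2% over these gates. Its fall into mid-S did not differ past the threshold from its fall into early-S (1.72 points, adjusted p = 0.112 by limma). It rose after mid-S by 1.94 points (adjusted p = 0.0117 by limma), but only in means. Its median was 8.31% and 8.56% in libraries 25 and 26, against 8.82% and 8.78% in libraries 23 and 24. LL loop enrichment was 0.98, 0.92, 0.75 and 0.71 over the same gates. Its step into mid-S passed, but it did not differ past the threshold from the step before (this step minus that one -0.098, adjusted p = 0.157) or after (that one minus this step 0.126, adjusted p = 0.11, both by limma), so the fall is not shown to belong to this step. With medians (0.17) or the small libraries (0.25) the difference from the step after passed (adjusted p = 0.0224 and 0.0355 by limma). The far distance was 26.4, 27.3, 26.5 and 23.4 Mb, and the step after mid-S, -3.06 Mb, differed from the one into it by -2.27 Mb (adjusted p = 0.0356 by limma), which did not pass with medians (-1.49 Mb, adjusted p = 0.0951). In all, 46.7% of the 15 features passed from G1 to early-S and 33.3% from mid-S to late-S/G2, beside 40% at the step into mid-S. Each of these steps shares a gate with its neighbour, so that their differences are not independent.

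**Figure D5:**
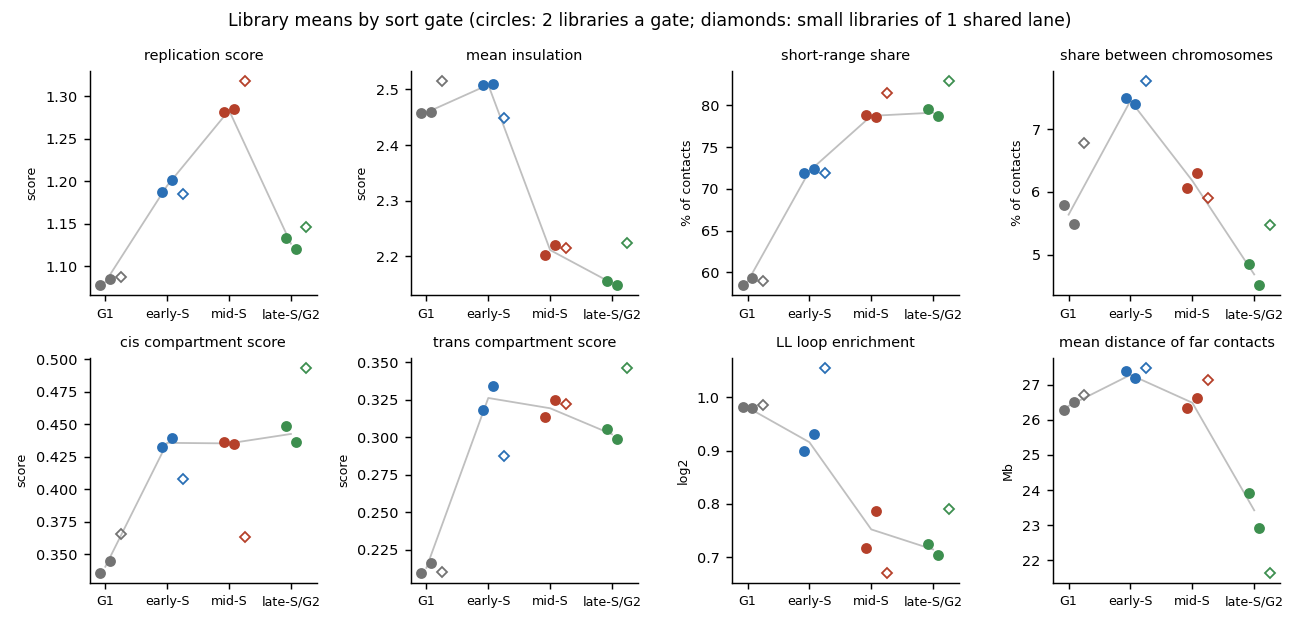
Means of the libraries in the 4 sort gates, in the order G1, early-S, mid-S and late-S/G2, for 8 folding features, with units on the vertical axes; circles are the 2 libraries with at least 10 cells, the grey line joins their means, and open diamonds are the small libraries of the shared lane. Insulation drops between early-S (2.51) and mid-S (2.21), the replication score is highest in mid-S (1.28), and the circles of the cis compartment score are level from early-S (0.436) on, while its diamonds scatter.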

How the data were processed

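The authors deposited a table of diploid ES cells grown in 2i with 1 row per cell, and a list pairing cells with samples and lanes. Reads were aligned with Bowtie2 to mm9, per the submitters' processing notes. How contacts and features were computed is not given in the sources used here. Contacts per cell are a deposited count. The deposited shares hold a fraction per cell and are printed in percent. The scores for replication, insulation, compartments, alignment and coverage deviation are the authors' own, with no scale defined. Deposited loop enrichments are read as log2 from their range. Far distance was deposited in bp and is shown in Mb.

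Cells were grouped by the authors' condition and batch number, which names the library. Library means over at least 10 passing cells, with features divided by their SD over cells of the 4 sort gates, were fitted with limma 3.58.1 in R 4.3.3 (residual df 4 over 8 libraries, 6.09 after moderation), with Benjamini-Hochberg adjustment over 15 features. Exact permutation tests were two-sided. Python 3.11.15 with pandas 2.3.3, numpy 2.4.6, scipy 1.17.1 and matplotlib 3.10.9 did the rest. On simulated data in the shape of mid-S against early-S libraries, the fit called 100.0% of 6 features changed by 0.5 SD among 15 and 1.67% of the unchanged ones, over 20 rounds. All simulated features were independent and had the same spread between libraries. In the real data the SE ran from 0.0499 SD of cells for coverage deviation to 0.404 for the duplicated share. The simulated shares therefore do not hold for each feature.

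The members, features and tests were chosen with earlier results of these data known. No gene was to be named, as the table holds no values per gene, and every feature is reported for the step into mid-S. For the other steps only some features are given. Cell type markers did not apply. Alternatives were minimums of 5 and 20 cells, merged batches, medians, weights, log2 contacts, other tests and samples, subsets of cells, failed cells, leave-one-out and a replicate block. Alternatives added later, with the data in view, were the exact test of 3 against 3 libraries, bands of replication score and short-range share, cells of the early-S and late-S/G2 groups alone, the replication band without moderation, and medians and 5-cell libraries for the other steps.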

Additional observations from a re-analysis of the deposited data

How the results depend on the processing

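The 6 features that passed kept their direction under every alternative that could be run. All 6 passed with a minimum of 5 cells, medians, weights by cells and an unmoderated linear model. They also passed in cells of the early-S and late-S/G2 groups, and without library 21, 22, 23 or 24. The moderated fit in the band of replication score passed all 6 too, but is not counted, since it set 1 spread for all features. A minimum of 20 cells and merged batches left the same libraries and values, log2 contacts change 1 other feature, and failed cells have values for only 1 of the 6, so these test little. Leaving out a library kept the count at 6. The ranges then were 0.0815 to 0.0958 for the replication score, 6.36 to 6.86 for the short-range share, -2.59 to -2.31 for the mitotic-band share, -1.40 to -1.16 for the share between chromosomes, -0.306 to -0.287 for insulation and -0.20 to -0.13 for LL loops, and -64.9 to -58.2 and 57.5 to 61.8 points for the early-S and late-S/G2 groups. Exact tests made 0 calls, by the number of libraries, with differences in the order above of 0.0886, 6.61, -2.45, -1.28, -0.297 and -0.16, and with the small libraries 0.104, 7.61, -2.73, -1.48, -0.275 and -0.24. Within the band of contacts, mitotic-band share (-2.34) and LL loops (-0.15) did not pass. In the early-S group 3 features passed, 2 of them among the 6, with short-range share (3.54), mitotic-band share (-1.35), share between chromosomes (-0.444) and LL loops (-0.14) lost and coverage deviation (0.100) gained. In the band of short-range share 3 passed, without mitotic-band share (-1.42), share between chromosomes (-0.570) and LL loops (-0.18). In the replication band without moderation 5 passed, without share between chromosomes (-1.14) and LL loops (-0.13) and with contacts (41261). The fit of both gates alone passed 11, adding far distance (-0.794 Mb), alignment (0.0155), EE loops (-0.0399), contacts (36138) and share without digestion (0.788). Gained elsewhere were the trans compartment score with failed cells (-0.0383), contacts in the moderated fit of the replication band (41261) and alignment in the early-S and late-S/G2 groups (0.0172). The causes of these gains and losses were not tested.

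Features that did not pass changed sign. The trans compartment score was 0.00686 with 5 cells, 0.00923 with medians, 0.000743 in the contact band and -0.0146 to 0.000866 without 1 library. The cis score was 0.00083 with medians, 0.00562 with failed cells, 0.00634 in the replication band, 0.00272 in the early-S and late-S/G2 groups and -0.00391 to 0.00305 without 1 library. The duplicated share was -0.132 in the contact band, -0.189 with failed cells, -0.00818 in the short-range band and -0.0406 to 0.247 without 1 library. In the early-S group and the short-range band, far distance was 0.241 and 0.370 Mb and alignment -0.00653 and -0.00241. Coverage deviation was -0.0300 in the replication band. The replicate block by sample uses libraries 17 and 16 alone, with no test, and gave 0.133, 9.61, -3.29, -1.87, -0.233 and -0.38 for the 6 features, and -0.338 Mb for far distance, -0.0450 and 0.0343 for cis and trans scores, 0.0269 for EE loops and 0.353 for coverage deviation. For the other steps, medians lost the insulation fall after mid-S (-0.00759) and the far distance after against into mid-S (-1.49), gained LL loops (-0.069) and far distance (0.946) into early-S, far distance into mid-S against into early-S (-1.73) and LL loops after against into mid-S (0.167), and turned LL loops after mid-S (0.00056) and the share between chromosomes after against into mid-S (0.0671). A minimum of 5 cells lost insulation before and after (0.0109 and -0.0366), short-range share (-5.53) and cis score (-0.0932) into mid-S against into early-S, gained LL loops after against into mid-S (0.251), and turned LL loops after (0.0143) and the share between chromosomes after against into mid-S (0.340). Late-S/G2 cells alone were not fitted, since no early-S library held 10 of them. Libraries per gate limit the precision.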

Other observations

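A few cells of the mid-S gate lay outside both S-phase groups of the authors. Of its 262 cells, 6 were in the G1 group, 2 in pre-M and 1 in post-M, against 4, 0 and 0 of the 303 early-S-gate cells. For a count of 0 there, the exact 95% interval of the share ran up to 1.21%. The post-M cell, from library 23, had an insulation of 1.62, the lowest of either gate, with 44.9% short-range contacts, 38.5% in the mitotic band and 0.816% between chromosomes. The 2 pre-M cells, also from library 23, averaged an insulation of 2.03 and a far distance of 19.8 Mb. The 4 G1-group cells of library 23 had an insulation of 2.46 and a replication score of 1.10, and the 2 of library 24 had 2.07 and 1.21.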
